A study of Drosophila melanogaster with 4 samples.

Results

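Glutathione S-transferases (GSTs) were followed through single nuclei of the *Drosophila melanogaster* brain after chronic exposure to sodium arsenite (NaAsO2). The family was taken as the matrix rows with the locus tags of the cytosolic GST genes, namely *GstD1* to *GstD11*, *GstE1* to *GstE14*, *GstO1* to *GstO3*, *se*, *GstS1*, *GstT1* to *GstT4*, *GstZ1* and *GstZ2*. These are 36 of the 17772 genes in the count matrices. Flies of the *w1118* Canton S (B) (CSB) laboratory strain, 3–5 days old when exposure began, lived for 6 days on medium with 250 µM NaAsO2 or on control medium. Each library pooled nuclei of 10 brains, and there was 1 library each of NaAsO2 females, control females, NaAsO2 males and control males. With 1 library per sex and treatment no difference between groups could be tested, and every interval below covers counting error only.

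GSTs couple the tripeptide glutathione to reactive compounds, which makes them easier to export, and several members also detoxify products of lipid peroxidation. The delta and epsilon classes are large in insects and are best known for insecticide resistance and for their induction by oxidative stress through the transcription factor encoded by *cnc*, the fly counterpart of mammalian Nrf2. Omega, sigma, theta and zeta GSTs are shared with mammals. In humans an omega GST reduces methylated arsenic compounds, and in mammals arsenic leaves cells largely as a glutathione conjugate.

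The family is laid out in tight runs of neighbouring genes (release 6 assembly, RefSeq annotation). All 11 delta genes lie on chromosome 3R between positions 12364776 and 12385624, a run of 20.8 kb. *GstD1* (Dmel_CG10045) occupies 12367817 to 12369268 and *GstD9* (Dmel_CG10091) 12366163 to 12367564, both on the minus strand. Of the 14 epsilon genes, all on 2R, 10 lie within 13.2 kb between 18396638 and 18409835, and *GstE9* (Dmel_CG17534, 18409048 to 18409835, plus strand) closes that run. *GstE12* (Dmel_CG16936) stands alone at 24766718 to 24768172 on the minus strand of 2R. The 4 omega genes fill 5.98 kb of 3L (8518885 to 8524866). Reads of neighbouring paralogs could be split between them, so values within the runs carry that uncertainty. *GstE1*, *GstE9*, *GstE12*, *GstE13*, *GstO2* and *GstT2* overlap a gene on the opposite strand (for *GstE9* it is *imd*, an immune signalling gene), and whether strand was used in counting is not given in the sources used here.

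The 4 libraries held between 10000 and 25332 nuclei and between 33235404 and 53360256 UMIs (unique molecular identifiers, which count single RNA molecules). The median nucleus had 1374 UMIs in the NaAsO2 females, 2222 in the control females, 2665.5 in the NaAsO2 males and 1827 in the control males. The NaAsO2 males held exactly 10000 nuclei, none of them under 1766 UMIs, whereas the other libraries reached down to 500. Unscaled values of that library are therefore over deeper nuclei than those of the others, and each is given a second time over the nuclei of at least 1766 UMIs in every library, a common limit added after seeing the data. Between 45 and 135 barcodes were shared by a pair of libraries. An unnamed cluster with 1058 of its 1291 nuclei from the NaAsO2 males set that library apart further. Values with and without these nuclei, and within a common depth window, are given where they bear on a result. The broad neuronal markers summed to 26403 to 33536 CPM over the whole libraries, beside a brain label. CPM here are the UMIs of a gene or list per 1000000 UMIs of the same nuclei.

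GST transcripts made up 7868 to 12790 UMIs per library. Of the 36 genes, 26 had at least 100 UMIs over the 4 libraries, 15 had at least 100 in each, and 5 (*GstD4*, *GstD6*, *GstD7*, *GstD8* and *GstE10*) stayed under 30 in all. The top 3 genes, *GstD1*, *GstE12* and *GstD9*, held 52.2% of the family's UMIs and the top 10 held 82.5%. These shares are of UMIs and were not corrected for gene length. The other 16 of the 26 ranged from 0.45 to 7.08 CPM, and the remaining 10 genes had 3 to 83 UMIs in all.

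Summed over the family, GST transcripts differed from control in opposite directions in the sexes on the CPM scale, and both directions turned round on UMIs per nucleus without scaling for depth, though not over nuclei of at least 1766 UMIs. The sum was 282 CPM in NaAsO2 females against 229 CPM in control females, a log2 ratio of 0.30 (95% interval 0.27 to 0.34). It was 229 CPM in NaAsO2 males against 339 CPM in control males, a log2 ratio of -0.56 (-0.60 to -0.52). The unscaled UMIs per nucleus gave -0.33 in females and 0.06 in males, and over nuclei of at least 1766 UMIs they gave 0.33 in females and -0.30 in males. The gene at the median of all genes stood at 0.08 in females and -0.22 in males on the CPM scale, and relative to it the family sum was at 0.22 and -0.34. In whole-library sums, fewer cells of a type and less RNA per cell cannot be told apart.

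**Figure D1:**
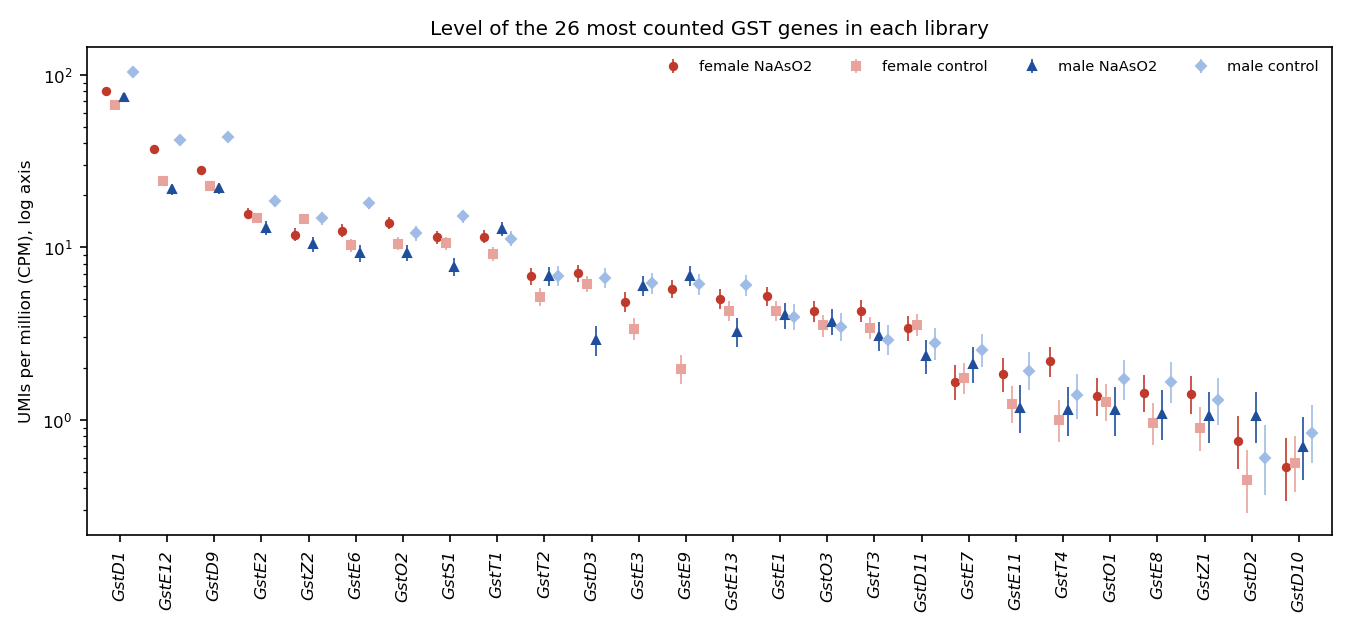
Level of GST genes in each library, for the 26 genes with most UMIs, in CPM (UMIs per 1000000, not corrected for gene length) on a log axis, with 1 point per library and exact 95% counting intervals. *GstD1* lies at 67.2 to 104 CPM, and control males hold the highest point for *GstD1*, *GstE12*, *GstD9*, *GstE6* and *GstS1*.

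*GstD1*, the most abundant member and a widely used readout of oxidative stress in flies, was at 80.1 CPM in NaAsO2 females against 67.2 CPM in control females, and at 74.0 CPM in NaAsO2 males against 104 CPM in control males. Its log2 ratio was 0.25 (0.19 to 0.32) in females and -0.49 (-0.57 to -0.42) in males. Control males were thus the high library and control females the low one, with both NaAsO2 libraries between them. *GstE12* had 37.3 CPM in NaAsO2 females against 24.2 CPM in control females, and 21.8 CPM in NaAsO2 males against 42.0 CPM in control males. Its log2 ratios were 0.63 (0.52 to 0.73) and -0.95 (-1.08 to -0.82), and it was the one gene with at least 100 UMIs in each sex that passed 1.5-fold in both sexes, in opposite directions, although the female value was -0.010 on the unscaled UMIs per nucleus (0.75 over nuclei of at least 1766 UMIs). *GstD9* had 28.0 CPM in NaAsO2 females against 22.5 CPM in control females, and 22.0 CPM in NaAsO2 males against 43.6 CPM in control males. Its log2 ratio was 0.31 in females and -0.98 (-1.11 to -0.86) in males, so that the control males again stood apart from the other libraries.

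The epsilon genes of the tandem run differed among themselves. *GstE6* had 12.5 CPM in NaAsO2 females against 10.3 CPM in control females, and 9.24 CPM in NaAsO2 males against 18.1 CPM in control males, for log2 ratios of 0.28 and -0.97. *GstE2*, at 12.98 to 18.4 CPM, had 0.08 and -0.51. *GstE9* went another way. It was at 5.75 CPM in NaAsO2 females against 1.97 CPM in control females, a log2 ratio of 1.55 (1.22 to 1.89), and at 6.82 CPM in NaAsO2 males against 6.11 CPM in control males, a log2 ratio of 0.16 (-0.12 to 0.44). For *GstE9* the control females were the library that stood apart, below the other 3. Of its 803 UMIs in all, 350 lay in the few nuclei named fat body-like below. Those were 119 in NaAsO2 females, 16 in control females, 84 in NaAsO2 males and 131 in control males, where 42 came from 1 nucleus.

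Among the other classes, *GstS1*, the sigma GST, which acts on the lipid peroxidation product 4-hydroxynonenal, was highest in control males, as *GstD1* and *GstD9* were, and lowest in NaAsO2 males. It had 11.46 CPM in NaAsO2 females against 10.6 CPM in control females, and 7.70 CPM in NaAsO2 males against 15.1 CPM in control males, with log2 ratios of 0.12 (-0.05 to 0.29) and -0.97 (-1.19 to -0.75). The omega gene *GstO2* ran from 9.27 to 13.8 CPM, with log2 ratios of 0.39 and -0.38. The theta genes *GstT1* and *GstT2* had log2 ratios of 0.33 and 0.39 in females, against intervals that held 0 in males, at 0.18 (-0.02 to 0.38) and -0.01 (-0.28 to 0.26). The zeta gene *GstZ2* was the abundant member with a ratio below 0 in both sexes, at 11.8 CPM in NaAsO2 females against 14.6 CPM in control females and 10.4 CPM in NaAsO2 males against 14.7 CPM in control males. Its log2 ratios were -0.30 (-0.46 to -0.14) and -0.50 (-0.70 to -0.30), although the male value was 0.12 on unscaled UMIs per nucleus (-0.47 over nuclei of at least 1766 UMIs). Zeta GSTs isomerise maleylacetoacetate in the breakdown of tyrosine.

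By enzyme class, the summed log2 ratio in females was 0.25 for delta, 0.45 for epsilon, 0.34 for omega, 0.12 for sigma, 0.40 for theta and -0.23 for zeta. In males it was -0.63 for delta, -0.64 for epsilon, -0.30 for omega, -0.97 for sigma, 0.08 for theta, with an interval of -0.06 to 0.23 that held 0, and -0.49 for zeta. Theta was the class above 0 in both sexes and zeta the class below 0 in both on the CPM scale, whereas unscaled UMIs per nucleus shift every whole-library ratio by -0.64 in females and by 0.62 in males.

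A fold of at least 1.5, with at least 100 UMIs over the libraries compared, served as the rule for calling a gene higher or lower. In females 24 of the 36 genes met the minimum, and 4 were higher (*GstE9*, *GstE12*, *GstT4* and *GstZ1*), where 4.89% of all 8930 genes were. None was lower, where 0.717% of all genes were. In males 20 genes met the minimum, none was higher (2.82% of 8583 genes) and 7 were lower (*GstD3*, *GstD9*, *GstE6*, *GstE11*, *GstE12*, *GstE13* and *GstS1*), where 22.8% of all genes were. The median of the GST genes was 0.30 in females, beside 0.08 for all genes, and -0.43 in males, beside -0.22.

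**Figure D2:**
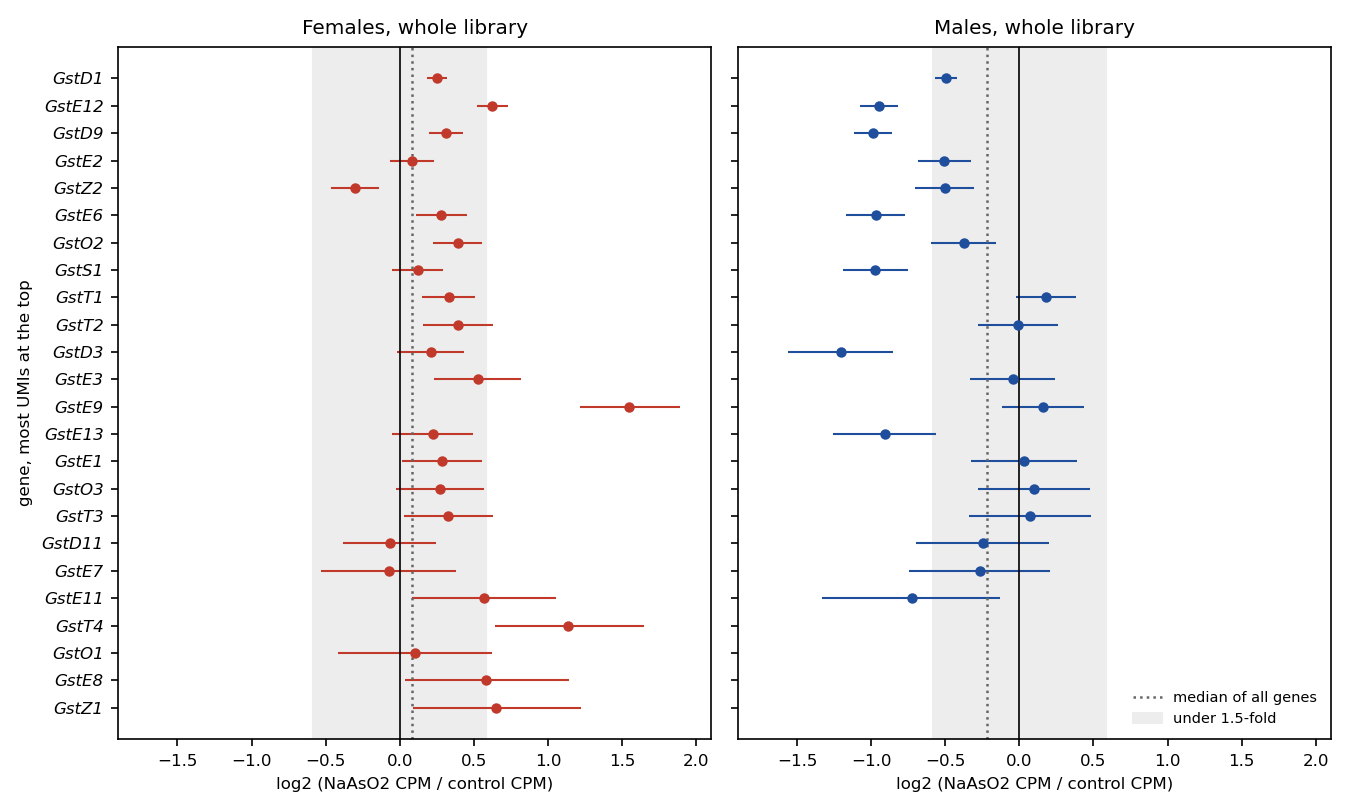
Log2 ratio of CPM, NaAsO2 over control (horizontal), in females (left) and males (right) for each GST gene with at least 100 UMIs in that sex, with 95% counting intervals, the median of all genes dotted and ratios under 1.5-fold shaded. On this scale 21 of 24 female points lie above 0 and 15 of 20 male points below 0, whereas on unscaled UMIs per nucleus the medians are -0.34 and 0.19, and over nuclei of at least 1766 UMIs 0.32 and -0.12.

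Depth moved with these values, since the NaAsO2 males had no nucleus below 1766 UMIs. Among nuclei of 1766 to 3532 UMIs, a window chosen after seeing the data, the family stood at 211 CPM in NaAsO2 females against 192 CPM in control females, and at 200.2 CPM in NaAsO2 males against 271 CPM in control males. No GST gene was then called higher in females, and their female median was 0.082 there. The male difference kept its direction in that window. The female one did not keep it below 1766 UMIs, where 16945 of the 25332 nuclei of NaAsO2 females lay. The sum there was 262 CPM in NaAsO2 females against 335 CPM in control females. Above 3532 UMIs it was 425 CPM in NaAsO2 females against 227 CPM in control females. Among the nuclei below 1766 UMIs the glial clusters had 855 CPM in NaAsO2 females against 757 CPM in control females, and the neuronal clusters 179 CPM in NaAsO2 females against 197 CPM in control females. The unnamed cluster held mostly by the NaAsO2 males carried 27.1% of that library's GST UMIs in 10.6% of its nuclei, at 515 CPM, and without it the male median was -0.55.

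Males and females were compared within each treatment. In the control libraries the family sum was higher in males than in females by a log2 ratio of 0.57 (0.53 to 0.60), and by 0.25 on unscaled UMIs per nucleus. In the NaAsO2 libraries it was lower in males on the CPM scale at -0.30 (-0.34 to -0.26), whereas on unscaled UMIs per nucleus it was 0.64 higher. Over nuclei of at least 1766 UMIs it was 0.787 UMIs per nucleus in NaAsO2 males against 0.940 in NaAsO2 females. Of 22 GST genes past the minimum in the controls, 8 were at least 1.5-fold higher in males (*GstD1*, *GstD9*, *GstE3*, *GstE6*, *GstE8*, *GstE9*, *GstE11* and *GstE12*), where 12.3% of 8835 genes were, and none was lower (2.37%). Their median was 0.46, beside 0.14 for all genes. Of 24 in the NaAsO2 libraries, none was higher in males (3.21% of 8750 genes) and 5 were lower (*GstD3*, *GstE11*, *GstE12*, *GstE13* and *GstT4*; 14.9%), with a median of -0.39 beside -0.19. *GstE9* had the highest ratio between the control sexes, at 6.11 CPM in males against 1.97 CPM in females, while the NaAsO2 libraries had 6.82 CPM in males and 5.75 CPM in females, a log2 ratio of 0.25. Fat body-like nuclei held 131 of the *GstE9* UMIs of control males and 16 of those of control females.

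To place the transcripts in cells, the 69415 nuclei were clustered without the GST genes or other detoxification and stress genes, and clusters were named from fixed marker lists. Of 30 clusters, 15 were named, holding 30.8% of nuclei, and 9598 nuclei fell in glial and 53717 in neuronal clusters. The family was carried at a higher level in glia than in neurons in every library. Its sum in glial and in neuronal clusters was 927 and 163 CPM in NaAsO2 females, 654 and 146 CPM in control females, 449 and 112 CPM in NaAsO2 males, and 987 and 190 CPM in control males. The log2 ratios of glial over neuronal clusters were 2.50, 2.16, 2.001 and 2.38 in the same order. With clusters rebuilt on 30 principal components the NaAsO2 male ratio was 1.05.

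Of the 26 genes with at least 100 UMIs, 20 were higher in glial than in neuronal clusters in all 4 libraries. *GstD1* reached 318, 237, 160.0 and 343 CPM in glial clusters of NaAsO2 females, control females, NaAsO2 males and control males, where its neuronal levels were 39.0, 35.5, 28.7 and 51.6 CPM. The one gene lower in glia throughout was *GstZ2*, with glial levels of 7.96, 10.9, 7.70 and 6.08 CPM and neuronal levels of 12.5, 15.5, 11.6 and 16.7 CPM in the same order. *GstD11*, *GstE13*, *GstO1*, *GstO3* and *GstT4* had no fixed order between glia and neurons.

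Glial purity and depth moved with these levels. The summed broad glial markers were at 981 CPM in the glial clusters of NaAsO2 females against 901 CPM in those of control females, and at 476 CPM in NaAsO2 males against 926 CPM in control males. Neuronal markers in the same clusters were at 15965 CPM in NaAsO2 females against 20185 CPM in control females, and at 24207 CPM in NaAsO2 males against 15648 CPM in control males. The glial clusters of NaAsO2 males thus held the least glial and the most neuronal marker RNA, as well as the highest median depth, 2853 UMIs against 1213 to 1612 UMIs in the control libraries and 1164 UMIs in NaAsO2 females. The part of the marker RNA in the GST values was not tested. Within nuclei of 1766 to 3532 UMIs, the glial sum was 698 CPM in NaAsO2 females against 591 CPM in control females, and 446 CPM in NaAsO2 males against 901 CPM in control males.

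**Figure D3:**
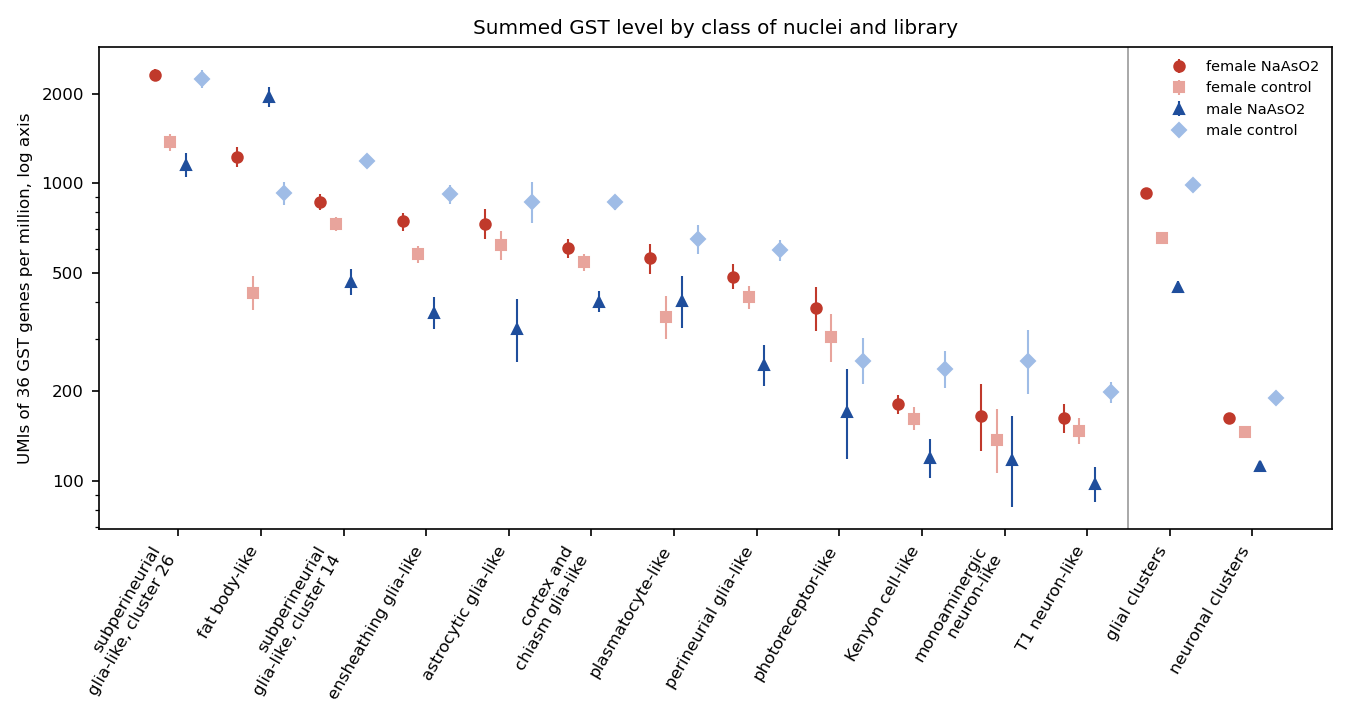
Summed CPM of the 36 GST genes in each named cell class (log axis), 1 point per library with exact 95% counting intervals. In fat body-like nuclei the NaAsO2 point lies above the control point in both sexes, and in the other 11 named classes the NaAsO2 male point lies below the control male point, although on unscaled UMIs per nucleus it lies above it in 6 of them (in 0 over nuclei of at least 1766 UMIs).

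By class, on the CPM scale, the female ratio of the family sum was above 0 in all 12 named classes and the male ratio in 1 of them, the fat body-like nuclei, whereas on unscaled UMIs per nucleus these were 5 and 7 classes, and over nuclei of at least 1766 UMIs 10 and 1. The female CPM interval held 0 in Kenyon cell-like (-0.01 to 0.33), T1 neuron-like (-0.08 to 0.36), monoaminergic neuron-like (-0.26 to 0.79) and photoreceptor-like nuclei (-0.04 to 0.69). Subperineurial glia, which form the tight barrier layer of the blood-brain barrier, came out as 2 clusters. The smaller, cluster 26, was led by *Mdr65*, an efflux transporter of that barrier. It held 92, 80, 49 and 63 nuclei in NaAsO2 females, control females, NaAsO2 males and control males, with medians of 4065 to 6499.5 UMIs, and had the highest GST sum of the glia. On all 5 scales tried the sum was above control in females and below it in males. It was 2313 CPM in NaAsO2 females against 1371 CPM in control females (log2 0.75, 0.64 to 0.87), and 1155 CPM in NaAsO2 males against 2235 CPM in control males (log2 -0.95, -1.12 to -0.78). *Mdr65* itself was at 2002 CPM in NaAsO2 females against 1636 CPM in control females, and at 1093 CPM in NaAsO2 males against 2152 CPM in control males. Neuronal markers in these nuclei were at 8087 CPM in NaAsO2 females against 15251 CPM in control females, and at 14372 CPM in NaAsO2 males against 10000.4 CPM in control males. In both sexes *Mdr65* moved with the GST sum and the neuronal markers moved against it. The part of either in the sum was not tested. By the mean CPM over the 4 libraries, 11 of the 26 genes were highest in this cluster.

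Within cluster 26, *GstD1* was at 793 CPM in NaAsO2 females against 455 CPM in control females, and at 308 CPM in NaAsO2 males against 580 CPM in control males. *GstE12* was at 491 CPM in NaAsO2 females against 237 CPM in control females, and at 207 CPM in NaAsO2 males against 488 CPM in control males. For both genes NaAsO2 females and control males were the high libraries. *GstE6* was at 219 CPM in NaAsO2 females against 174 CPM in control females, and at 160.2 CPM in NaAsO2 males against 436 CPM in control males. *GstE9* was the gene past 1.5-fold upward in both sexes here, at 65.8 CPM in NaAsO2 females against 31.8 CPM in control females (log2 1.05, 0.31 to 1.83) and 74.9 CPM in NaAsO2 males against 37.3 CPM in control males (1.01, 0.02 to 2.07). Of 17 genes with at least 20 UMIs in females 10 were higher (19% of all genes) and none lower (17.6%). Of 11 in males 1 was higher (13.3%) and 7 were lower (23.2%).

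The larger subperineurial-like cluster, cluster 14, was led by *CG14645*, a gene of unknown function. That gene was at 0 CPM in NaAsO2 females against 6.73 CPM in control females, and at 0 CPM in NaAsO2 males against 2616 CPM in control males, so that its level in the cluster came almost wholly from the control males. The name rests on 3 list genes among the 10 leading ones. The glial marker *repo* was low, at 64.3 CPM in NaAsO2 females against 49.6 CPM in control females and at 34.3 CPM in NaAsO2 males against 67.6 CPM in control males, where perineurial glia-like nuclei had 72.2 to 111 CPM. The neuronal marker *nSyb* was at 833 to 969 CPM, where neuronal clusters had 855 to 1098 CPM. *Mdr65* was at 405 CPM in NaAsO2 females against 302 CPM in control females, and at 90.7 CPM in NaAsO2 males against 455 CPM in control males. The part of these differences in its GST values was not tested. Its GST sum was 864 CPM in NaAsO2 females against 730 CPM in control females, and 467 CPM in NaAsO2 males against 1188 CPM in control males. These log2 ratios of 0.24 and -1.35 turned to -0.05 and 0.57 on unscaled UMIs per nucleus, and stood at 0.44 and -0.23 over nuclei of at least 1766 UMIs. *GstE12* was at 185 CPM in NaAsO2 females against 110 CPM in control females, and at 44.1 CPM in NaAsO2 males against 231 CPM in control males. That male log2 ratio of -2.39 (-2.94 to -1.88) was matched by *GstE6* at -2.41, while *GstD1* stood at -1.06. In females the same 3 genes had 0.75, -0.01 and 0.33.

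Ensheathing glia-like nuclei, which wrap neuropil, had a GST sum of 744 CPM in NaAsO2 females against 577 CPM in control females and 367 CPM in NaAsO2 males against 917 CPM in control males, log2 ratios of 0.37 and -1.32 that were -0.04 and 0.14 without scaling and 0.45 and -0.94 over nuclei of at least 1766 UMIs. In the glial and neuronal classes that follow, values without scaling are given first over all nuclei and then over those of at least 1766 UMIs. By its mean over libraries *GstD9* was highest there among the classes, at 156 CPM in NaAsO2 females against 88.3 CPM in control females and 46.0 CPM in NaAsO2 males against 209 CPM in control males. Astrocytic glia-like nuclei, which take up neurotransmitter at synapses, had log2 ratios of 0.24 in females and -1.42 in males, and 0.10 and 0.16, then 0.20 and -0.87, without scaling. *GstD3*, highest in this class, was at 116 CPM in NaAsO2 females against 63.2 CPM in control females and 9.50 CPM in NaAsO2 males against 138 CPM in control males, the NaAsO2 males contributing 64 nuclei. Their *GstD3* level came from 2 UMIs, under the floor of 3 counts. Cortex and chiasm glia-like nuclei had 0.15 and -1.11, and -0.34 and 0.25, then -0.14 and -0.11, without scaling. Perineurial glia-like nuclei, the outermost glial layer of the barrier, had 0.23 and -1.28, and -0.38 and -0.12, then -0.06 and -1.05, without scaling. Over all glial clusters 8 of 26 genes were higher in females (10.1% of all genes) and 1 lower (3.59%), and in males 1 of 22 was higher (6.08%) and 14 were lower (28.6%).

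In neuronal clusters the family's log2 ratio was 0.16 (0.11 to 0.21) in females and -0.76 (-0.83 to -0.69) in males, and -0.56 and -0.37, then -0.09 and -0.72, without scaling. Broad glial markers in these clusters were at 118 CPM in NaAsO2 females against 131 CPM in control females, and at 71.6 CPM in NaAsO2 males against 115.5 CPM in control males. Fat body markers were at 364 CPM in NaAsO2 females against 312 CPM in control females, and at 320.3 CPM in NaAsO2 males against 505 CPM in control males. Both lists were thus lower in NaAsO2 than in control males, as the GST sum was, and their part in it was not tested. Of 27 genes past the minimum in females 4 were higher (6.6%) and none lower (2.42%), and of 24 in males 1 was higher (4.47%) and 15 were lower (31%). *GstE9* was past 1.5-fold upward in both sexes, at 1.55 CPM in NaAsO2 females against 0.734 CPM in control females and 1.51 CPM in NaAsO2 males against 0.921 CPM in control males, with a male interval of -0.08 to 1.54 that held 0. Kenyon cell-like nuclei, the intrinsic neurons of the mushroom body, had family log2 ratios of 0.16 in females and -0.99 in males, and -0.38 and -0.23, then 0.06 and -0.83, without scaling. T1 neuron-like nuclei of the optic lobe had 0.14 and -1.02, and -0.44 and 0.28, then 0.09 and -0.30, without scaling, and monoaminergic neuron-like nuclei had 0.26 and -1.11, and 0.05 and -0.60, then 0.25 and -0.97. Photoreceptor-like nuclei had 0.32 (-0.04 to 0.69) and -0.57 (-1.15 to -0.02), and -0.02 and -0.23, then 0.61 and -0.93, without scaling. They were the class in which *GstT4* was highest, at 29.6 CPM on average over the libraries, while *GstD11* was highest in Kenyon cell-like nuclei at 8.71 CPM.

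**Figure D4:**
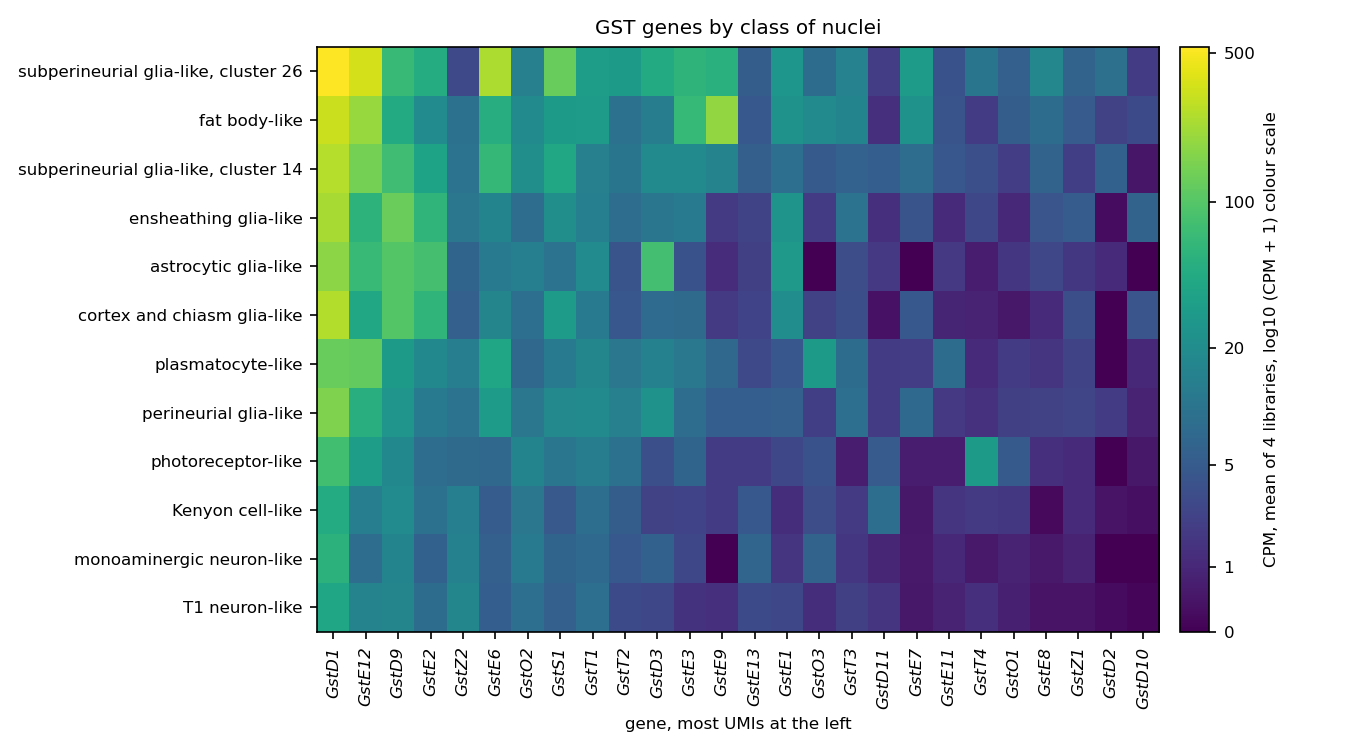
Level of the 26 GST genes with most UMIs (columns) in each named class of nuclei (rows), as the mean CPM of the 4 libraries on a log10 (CPM + 1) colour scale. Cluster 26 is the brightest row for 11 genes, *GstE9* is brightest in fat body-like nuclei at 192 CPM, and *GstT4* in photoreceptor-like nuclei at 29.6 CPM.

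Fat body-like nuclei were the class with the family higher in both sexes, on all 5 scales tried. The fat body lines the head capsule around the brain and is the fly's main organ of detoxification and storage. These nuclei were led by *CG2233*, *Nplp2* and *Obp99c*, and numbered 114, 184, 89 and 182 in NaAsO2 females, control females, NaAsO2 males and control males. The GST sum was 1226 CPM in NaAsO2 females against 429 CPM in control females, a log2 ratio of 1.52 (1.30 to 1.74). It was 1947 CPM in NaAsO2 males against 924 CPM in control males, a log2 ratio of 1.08 (0.90 to 1.25). In UMIs per nucleus the family had 5.30 in NaAsO2 females against 1.29 in control females, and 7.40 in NaAsO2 males against 2.66 in control males. Over nuclei of at least 1766 UMIs it had 10.5 in NaAsO2 females against 1.71 in control females, and 7.40 in NaAsO2 males against 5.64 in control males, log2 ratios of 2.62 and 0.39.

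All 10 GST genes with at least 20 UMIs in females were at least 1.5-fold higher there (23.1% of all genes) and none was lower (17.4%), but for 6 of them (*GstD9*, *GstE2*, *GstE6*, *GstO2*, *GstS1* and *GstT1*) the counting interval held 0. In males 6 of 10 were higher (*GstD1*, *GstE1*, *GstE3*, *GstE6*, *GstE7* and *GstT1*; 36.1%) and 2 were lower (*GstE12* and *GstS1*; 16.7%). The medians were 1.22 in females, beside -0.05 for all genes, and 1.64 in males, beside 0.36.

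*GstD1* was at 290.2 CPM in NaAsO2 females against 101 CPM in control females (log2 1.52, 95% interval 1.07 to 1.997), and at 774 CPM in NaAsO2 males against 112 CPM in control males (2.78, 2.37 to 3.22). Both NaAsO2 libraries lay above both controls, and the controls differed from each other by a log2 ratio of 0.16, male over female. *GstE3* had 77.1 CPM in NaAsO2 females against 5.404 CPM in control females, a value from 3 UMIs (log2 3.84, 2.18 to 6.18), and 157 CPM in NaAsO2 males against 26.7 CPM in control males (2.55, 1.68 to 3.52). The 5 nuclei with most *GstE3* UMIs carried 73.7% of them in NaAsO2 females and 78.6% in control males. *GstE6* had 34.5 CPM in NaAsO2 females against 14.4 CPM in control females (1.26, -0.03 to 2.68) and 136 CPM in NaAsO2 males against 11.4 CPM in control males (3.57, 2.34 to 5.09). *GstT1* had 0.80 (-0.38 to 2.04) and 0.73 (-0.42 to 1.89), so that both intervals held 0. Of the neighbours of *GstE6* in the run, *GstE7* had 24 UMIs in NaAsO2 males against 1 in control males (log2 5.22, 2.60 to 10.58), and *GstE1* had 19 in NaAsO2 males against 2 in control males (3.88, 1.83 to 7.03). Both were named after their values were seen.

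Other members did not follow this order in fat body-like nuclei. *GstE9* was at 242 CPM in NaAsO2 females against 28.8 CPM in control females (log2 3.07, 2.31 to 3.92), and at 248 CPM in NaAsO2 males against 250.0 CPM in control males (-0.01, -0.42 to 0.40). Both ratios rested on few nuclei. The 5 nuclei with most *GstE9* UMIs carried 70.2% of them in control males and 62.2% in NaAsO2 females. Over 9 alternatives the male ratio ran from -0.88 to 1.0003, the highest with every nucleus given equal weight, and the female ratio from 2.71 to 4.12. *GstE12* was at 231 CPM in NaAsO2 females against 93.7 CPM in control females (1.30, 0.82 to 1.81), and at 174 CPM in NaAsO2 males against 299 CPM in control males (-0.78, -1.24 to -0.34). The female ratio of *GstE12* was 0.38 with every nucleus given equal weight and the male ratio -0.38 on unscaled UMIs per nucleus, both under 1.5-fold, and 27 of its 114 UMIs in NaAsO2 females came from 1 nucleus. *GstS1* was at 44.7 CPM in NaAsO2 females against 23.4 CPM in control females (0.93, -0.12 to 2.04), and at 14.8 CPM in NaAsO2 males against 36.2 CPM in control males (-1.29, -3.07 to 0.18, from 5 UMIs in NaAsO2 males), so that both intervals held 0. Between the control sexes, males were above females by a log2 ratio of 3.11 for *GstE9* and 1.67 for *GstE12*, and by 1.11 for the family.

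**Figure D5:**
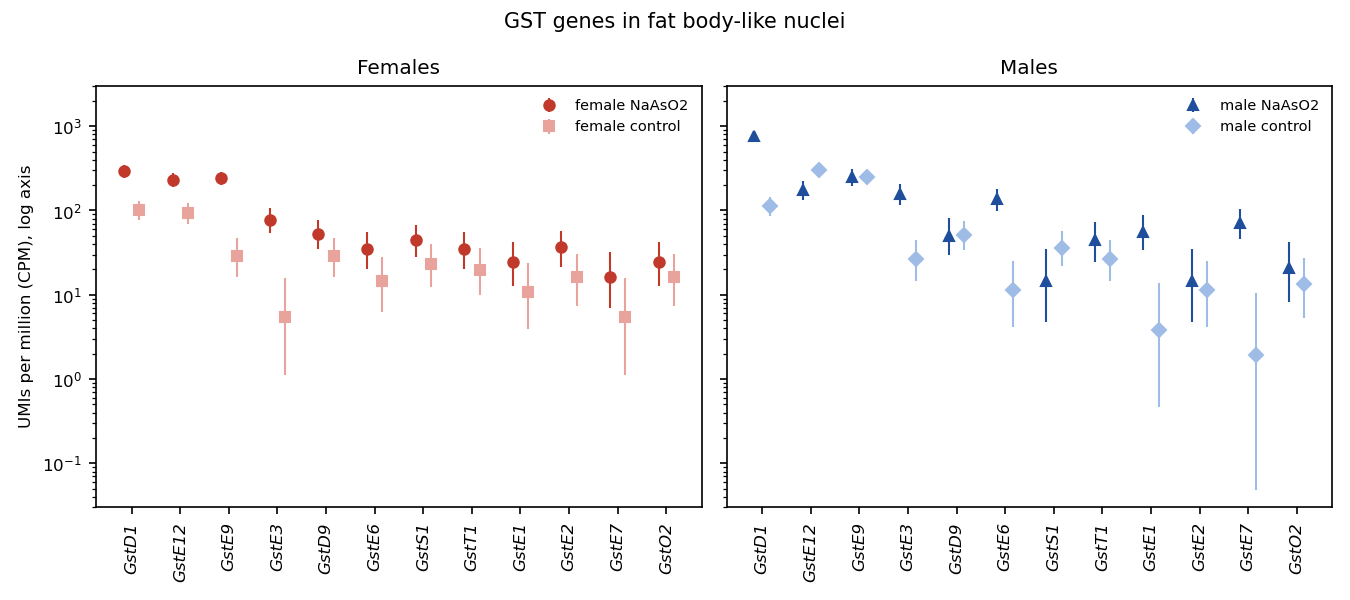
The 12 GST genes with most UMIs in fat body-like nuclei, in CPM on a log axis, females left and males right, 1 point per library with exact 95% counting intervals. For *GstD1*, *GstE3* and *GstE6* both NaAsO2 libraries lie above both control libraries, whereas for *GstE9* control females lie at 28.8 CPM and the other 3 libraries at 242 to 250.0 CPM. The *GstE9* point rests on 5 nuclei for 70.2% of its UMIs in control males and for 62.2% in NaAsO2 females.

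These values rest on few nuclei. The single nucleus with most GST UMIs held 13.6% of the family's UMIs in NaAsO2 females, 5.46% in control females, 6.07% in NaAsO2 males and 18.8% in control males. For *GstE9*, 42 of the 131 UMIs of control males and 28 of the 119 UMIs of NaAsO2 females each came from 1 nucleus. Fat body markers in these nuclei were at 44029 CPM in NaAsO2 females against 20747 CPM in control females, and at 39354 CPM in NaAsO2 males against 105248 CPM in control males. Neuronal markers were at 16350 CPM in NaAsO2 females against 24829 CPM in control females, and at 22296 CPM in NaAsO2 males against 12355 CPM in control males. The part of the marker RNA in the GST values was not tested. Within nuclei of 1766 to 3532 UMIs, the sum was 1228 CPM in NaAsO2 females against 289 CPM in control females, and 1451 CPM in NaAsO2 males against 812 CPM in control males.

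Plasmatocyte-like nuclei, the macrophage-like blood cells, were the other class outside the nervous system. Their GST sum was 559 CPM in NaAsO2 females against 355 CPM in control females (log2 0.65, 0.36 to 0.95), and 401 CPM in NaAsO2 males against 650.0 CPM in control males (-0.70, -1.04 to -0.36), while without scaling the male ratio was 0.20 over all nuclei and -0.87 over those of at least 1766 UMIs. Fat body markers in these nuclei were at 2874 CPM in NaAsO2 females against 1902 CPM in control females, and at 1837 CPM in NaAsO2 males against 3405 CPM in control males. Neuronal markers were at 19279 CPM in NaAsO2 females against 27916 CPM in control females, and at 27306 CPM in NaAsO2 males against 18230 CPM in control males. In both sexes the fat body markers moved with the GST sum and the neuronal markers moved against it. The part of either list in the sum was not tested. Among the named classes *GstE11* and *GstO3* were highest in this one, with 29.4 CPM of *GstO3* on average over the libraries. The *GstE11* mean of 8.14 CPM came from 15 UMIs in all. The unnamed cluster held mostly by NaAsO2 males had a *GstE11* mean of 13.5 CPM.

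Other genes of glutathione and thioredoxin metabolism were followed as a list of 14, all found in the matrices. In the whole libraries of females 1 of 11 past the minimum was higher (*Ggt-1*, which splits extracellular glutathione) and none lower, where 4.89% and 0.717% of all genes were, with a median of 0.07 beside 0.08 for all genes. In males none was higher and 2 of 11 were lower (*Mgstl*, the microsomal GST, at -1.01 and *Grx1*, a glutaredoxin, at -0.60), where 2.82% and 22.8% of all genes were, with a median of -0.35 beside -0.22. In the fat body-like nuclei 6 of 9 were higher in females and none lower, where 23.1% and 17.4% of all genes were, with a median of 0.82 beside -0.05. In males 7 of 10 were higher and 1 lower there, where 36.1% and 16.7% of all genes were, with a median of 1.25 beside 0.36.

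*Gclc*, the catalytic subunit of the enzyme that limits glutathione synthesis, was at 288 CPM in fat body-like nuclei of NaAsO2 females against 124 CPM in those of control females, and at 538 CPM in NaAsO2 males against 105 CPM in control males. *cnc* was at 688 CPM in NaAsO2 females against 405 CPM in control females, and at 1182 CPM in NaAsO2 males against 497 CPM in control males. *Trxr1*, thioredoxin reductase, whose system also recycles glutathione in flies, was at 108 CPM in NaAsO2 females against 41.4 CPM in control females, and at 183 CPM in NaAsO2 males against 26.7 CPM in control males. All 3 followed the order seen for *GstD1*, both NaAsO2 libraries above both controls. *Mgstl* did not, at 79.2 CPM in NaAsO2 females against 55.8 CPM in control females and 103 CPM in NaAsO2 males against 314 CPM in control males. In males, glial and neuronal clusters each had 5 of 11 list genes lower, where 28.6% and 31% of all genes were, and none higher, where 6.08% and 4.47% were.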

How the data were processed

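Nuclei of 10 pooled brains per sex and treatment were sequenced with 10X Genomics 3' v3.1 chemistry. The authors aligned reads to release 6 and made the deposited UMI counts per gene and nucleus with Cell Ranger (3.1 in the submitters' notes, 7.0.1 in the matrix headers); strand and intron settings are not given in the sources used here. Counts were summed per library or class and scaled to CPM (UMIs per 1000000). Ratios have exact conditional binomial 95% intervals, and levels exact Poisson intervals, both for counting error only. A gene was called at 1.5-fold with at least 100 UMIs in a pair of libraries (20 in a class). Sums under 3 counts are the floor.

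Of 17772 gene IDs, 17705 matched the RefSeq table of release 6. Nuclei were clustered on analytic Pearson residuals (theta 100) of 3000 variable genes, with 10 principal components, 20 neighbours and Louvain resolution 1 (scikit-learn 1.9.0, python-igraph 0.11.9). Left out were 355 genes, namely detoxification, stress, roX, yolk protein, mitochondrial and rRNA genes. A cluster was named where at least 3 of its 10 leading genes, more than for any other list, and 50% of a marker list at 1.5-fold pointed to 1 type, and glial names needed 2 broad glial markers at 2-fold. The naming thresholds date from after clustering, with the clusters in view, so names may differ from the study's. Doublets were kept in the main values, and removal by Scrublet scores (scanpy 1.11.5) was an alternative. Other alternatives were 3 scalings, depth limits, class shares, gene minimums, a fold of 2, Louvain resolution 2 and 30 components.

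Named one by one were the 10 members with most UMIs, *GstD1*, *GstD9*, *GstE6* and *GstE9*, and members past the fold in both sexes. In some classes, members with most UMIs there or a member highest there were also named. The members, gene lists and this rule were chosen with earlier results of these data known. On simulated counts for 8103 genes, 95.2% of intervals held the true ratio of the female control sums. That simulation used whole-library sums and did not cover classes, where few nuclei can carry most UMIs of a gene.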

Additional observations from a re-analysis of the deposited data

Results flagged for a closer look

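A group of results had GST genes past 1.5-fold in opposite directions in the sexes, higher in NaAsO2 than control females and lower in NaAsO2 than control males on the CPM scale, with 1 library in each group. The difference between the sexes was not tested in any of them.

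*GstE12* did so in more places than any other member, with log2 ratios (females, then males) of 0.63 and -0.95 in the whole library, 1.30 and -0.78 in fat body-like nuclei, 0.75 and -2.39 in cluster 14 and 1.05 and -1.24 in cluster 26 of the subperineurial glia-like nuclei, 0.70 and -2.25 in perineurial glia-like nuclei, and 0.94 and -1.54 over all glial clusters. Its female value was under 1.5-fold in astrocytic glia-like (0.09), plasmatocyte-like (0.45), Kenyon cell-like (0.38), T1 neuron-like (-0.04) and photoreceptor-like nuclei (0.12). The whole-library female value was -0.010 on unscaled UMIs per nucleus (0.75 over nuclei of at least 1766 UMIs). In fat body-like nuclei the female value was 0.38 with every nucleus given equal weight and the male value -0.38 on unscaled UMIs per nucleus, both under 1.5-fold, and 27 of the 114 UMIs of NaAsO2 females came from 1 nucleus.

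Among the delta genes, *GstD1* had 0.80 and -0.91 in cluster 26. In monoaminergic neuron-like nuclei it had 0.62 (-0.41 to 1.68) and -1.77, so that the female interval held 0. *GstD9* had 1.13 and -1.15 in cluster 26 and 0.82 and -2.18 in ensheathing glia-like nuclei. In plasmatocyte-like nuclei it had 1.52 and -3.60 (counting interval -8.97 to -0.99, from 1 UMI in NaAsO2 males). In T1 neuron-like nuclei it had 0.63 (-0.006 to 1.28) and -1.84, so that the female interval held 0. *GstD3* had 0.87 and -3.87 (-6.99 to -1.87, from 2 UMIs in NaAsO2 males) in astrocytic glia-like nuclei. In unnamed cluster 8, whose leading genes matched the astrocytic list best, it had 0.14 and -2.25, the female value under 1.5-fold.

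Of the other epsilon genes, *GstE2* had 0.70 (-0.01 to 1.44) and -1.43 in astrocytic glia-like nuclei, and -0.11 and -0.30 in unnamed cluster 8. *GstE1* had 1.04 and -0.79 (-1.75 to 0.14) in cortex and chiasm glia-like nuclei. The female astrocytic interval of *GstE2* and this male interval of *GstE1* thus held 0. In unnamed cluster 20, whose leading genes matched the cortex and chiasm list best, *GstE1* had -1.20 (-4.54 to 1.28) and -2.28 (-7.74 to 0.57). Those values came from 8 and 10 UMIs, under the minimum of 20. *GstE8* had 1.27 and -1.08 in neuronal clusters, and *GstE13* had 0.82 and -1.03 over all glial clusters. *GstS1* had 0.93 (-0.12 to 2.04) and -1.29 (-3.07 to 0.18, from 5 UMIs in NaAsO2 males) in fat body-like nuclei. The theta genes were *GstT1*, with 1.82 and -0.94 in cortex and chiasm glia-like nuclei, and *GstT4*, with 0.64 and -0.73 in neuronal clusters. In unnamed cluster 20 *GstT1* had 1.16 (-0.30 to 2.74) and 1.25 (-0.34 to 2.91), above control in both sexes. Those values came from 19 and 16 UMIs, under the minimum of 20, and both intervals held 0.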

How the results depend on the processing

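No paired analysis was possible because each sex and treatment had 1 library, and no replicate could be left out. Glial over neuronal ratios are given in the order NaAsO2 females, control females, NaAsO2 males, control males. On unscaled UMIs per nucleus, females had 1 GST gene higher, 3 lower and a median of -0.34, and males had 6 higher, 0 lower and a median of 0.19. The male sums then reversed in glial clusters (0.32), subperineurial glia-like nuclei (0.62) and plasmatocyte-like nuclei (0.20), as did *GstE12* in the whole female library (-0.010). Over nuclei of at least 1766 UMIs these male sums did not reverse, at -0.65, -0.31 and -0.87 in the same order. The subperineurial value of 0.62 over all nuclei pools clusters 14 and 26. Taken apart, cluster 14 had 0.57 and cluster 26 had -0.44, so that cluster 26 did not reverse. Over all nuclei, unscaled fat body-like sums were 2.03 in females and 1.47 in males, and glial over neuronal ratios 2.68, 1.94, 2.52 and 1.82. Centred on the median gene, 2 genes were higher in females, the male median was -0.22, the fat body-like sum 0.71 in males, and the glial ratios of control females and NaAsO2 males 2.09 and 1.89. Giving every nucleus equal weight, the female median was 0.12, the fat body-like sum 1.22 in females, 1 gene was higher in males, and the glial ratio of NaAsO2 females was 2.31. With nuclei of at least 1766 UMIs, 7 genes were higher in females, the medians were 0.48 in females and -0.23 in males, and the glial ratios 2.67 in NaAsO2 females and 2.44 in control males. Without the highest Scrublet scores the female median was 0.40 and the glial ratios 2.71, 2.28, 2.099 and 2.54. Scrublet's own threshold marked 26.01%, 8.98%, 0.06% and 2.34% of nuclei in that order, so it did not work in the NaAsO2 males, and 5134, 2945, 800 and 1775 nuclei were removed at a set rate that grows with the number of nuclei. With class shares set to those of the controls, 8 genes were higher in females with a median of 0.50. A minimum of 30 UMIs gave 1 gene higher in males, a minimum of 300 gave 2 higher in females, and a fold of 2 gave 2 higher in females and 1 lower in males. With 30 principal components the glial ratios were 2.15, 1.88, 1.05 and 2.03. Resolution 2 moved none of these values. The last 3 alternatives were chosen after seeing the data. With nuclei of 1766 to 3532 UMIs, 0 genes were higher in females with a median of 0.082, 1 was higher in males, fat body-like sums were 2.09 in females and 0.84 in males, and the glial ratio of NaAsO2 females was 2.25. Without the unnamed cluster held mostly by NaAsO2 males, the male median was -0.55. On unscaled UMIs per nucleus over nuclei of at least 1766 UMIs, 4 genes were lower in males with a median of -0.12, fat body-like sums were 2.62 in females and 0.39 in males, and the glial ratios 3.23, 2.42, 2.52 and 2.45. The cause of these shifts was not tested. Fat body-like sums stayed above 0 in both sexes under all 9 alternatives, from 1.22 to 2.62 in females and from 0.39 to 1.47 in males.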
